A study of Sus scrofa with 12 samples.

Results

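The 9 genes described here are receptors and identity genes of macrophages and the growth factor that maintains these cells: CSF1, CSF1R, CD163, MRC1, AIF1, MSR1, MARCO, TYROBP and CD14. They were chosen by symbol, each matched 1 gene of the 20674 in the table, and all 9 were among the 15351 genes with enough counts to be tested. RNA was measured in the endometrium, the inner lining of the uterus, of Landrace × Yorkshire sows in 12 libraries, 3 in each of 4 diets fed from breeding through a gestation of 114 days. L − N was the diet with 3.73% crude fiber and no N-carbamylglutamate (NCG, a feed additive that raises arginine synthesis), L + N was that diet with 0.05% NCG, H − N held 7.46% crude fiber without NCG, and H + N held 7.46% crude fiber with 0.05% NCG. The sources used here do not say whether a library came from 1 sow or from pooled tissue, so p-values measure the spread between libraries.

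Macrophages are resident immune cells of most tissues. They depend on signals through CSF1R, a receptor tyrosine kinase that binds the cytokines CSF1 and IL34. In the uterus they clear dying cells and debris, take part in remodelling of vessels and stroma during gestation and in the return of the tissue to its resting state, and sense microbes. Scavenger receptors (CD163, MSR1, MARCO) and the mannose receptor MRC1 take up ligands from outside the cell, CD14 passes bacterial lipopolysaccharide to its signalling receptor, and TYROBP is an adaptor through which several surface receptors signal.

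The total count was 14369781 to 19309724 reads per library. Summed over 6 stroma markers such as DCN and COL1A1, read counts scaled to library size (CPM, with TMM factors) were 20811 to 50123, and over 5 epithelium markers such as KRT8 and EPCAM 948 to 2150, so RNA of stroma and epithelium, both parts of the endometrium, was present in all 12 libraries. These markers are not particular to the endometrium. By marker sums, L − N replicate 1 and H − N replicate 3 stood apart from the rest of their groups, and L − N replicates 2 and 3 from all other libraries. L − N replicate 1 held the most smooth muscle marker RNA, 3649 summed CPM over MYH11, ACTA2, DES and CNN1 against 554 to 1415 in the other 11, and the least RNA of the general leukocyte markers PTPRC, CD53, LCP1 and CORO1A, 311 summed CPM against 777 and 690 in L − N replicates 2 and 3 and 336 to 553 in the other groups. It also departed from the other L − N replicates in most of the 9 genes. H − N replicate 3 held the highest sums of the 12 for stroma (50123), epithelium (2150), neutrophil (172) and mast cell (740) markers. L − N replicates 2 and 3 had the highest leukocyte sums of the 12. Over 20 other macrophage genes, described below, they held 9458 and 7993 summed CPM. L − N replicate 1 held 2603, and the other diets 1733 to 4156. A fit without L − N replicate 1 thus keeps the 2 highest libraries as the L − N group. The calls are given below with all 12 libraries and, by counts, without L − N replicate 1 and without H − N replicate 3.

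By deposited FPKM, which is per length and so allows levels of different genes to be compared, CD163 had the highest mean over the 12 libraries (62.4 ± 50.1, SD, n = 12), followed by TYROBP (56.1 ± 23.7), CSF1R (39.0 ± 21.9), AIF1 (37.0 ± 13.8), CSF1 (29.9 ± 9.88), MRC1 (16.1 ± 7.42), CD14 (12.4 ± 7.12), MSR1 (11.4 ± 6.50) and MARCO (2.53 ± 2.21). Neighbours in this order differed by less than their SDs, except CSF1 and MRC1, and MSR1 and MARCO, which differed by more than either SD. MARCO was the one gene near the limit of the depth, with 8 to 230 reads per library, while the other 8 had 189 reads or more in every library. The highest of the 12 libraries in CPM was L − N replicate 2 or 3 for every member but CSF1, whose highest library was L − N replicate 1.

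**Figure D1:**
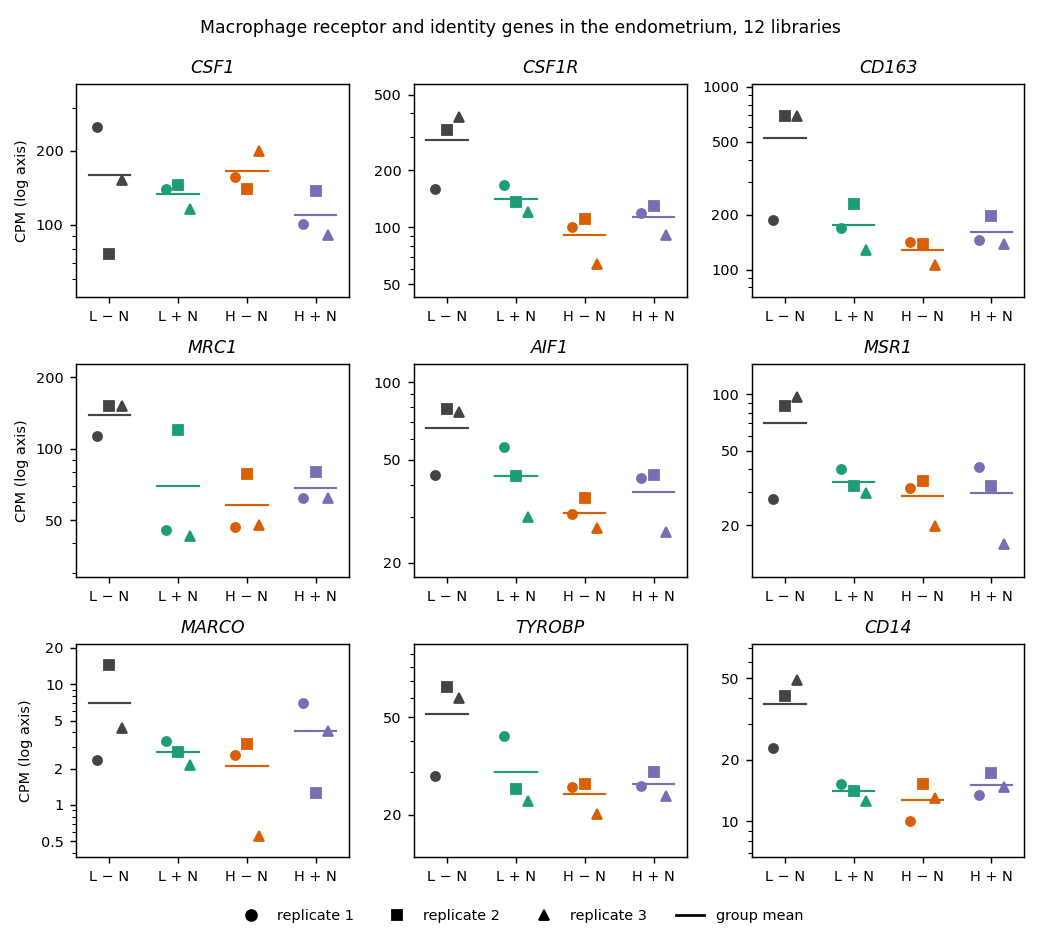
CPM (log axis) of each of the 9 genes in the 12 libraries by diet, with 1 marker shape per replicate number and a line at the group mean; replicate numbers do not link sows between diets. L − N replicates 2 and 3 (square and triangle) lie above the 9 libraries of the other diets for all genes but CSF1 and MARCO, while L − N replicate 1 (circle) lies among those 9 libraries for CSF1R, CD163, MRC1, AIF1, MSR1, MARCO and TYROBP.

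CSF1, the ligand, lies on the minus strand of chromosome 4 (110178466 to 110198232, Sscrofa11.1). Its CPM was 250, 75.9 and 153 in L − N replicates 1, 2 and 3, 139, 145 and 116 under L + N, 157, 140 and 201 under H − N, and 101, 138 and 91.2 under H + N. The L − N libraries held both the highest and the lowest value of the 12, so the other diets fell inside their range. No comparison called CSF1. The log2 difference from L − N was 0.05 ± 0.34 (SE) in H − N, −0.26 ± 0.34 in L + N and −0.54 ± 0.34 in H + N. All 3 H + N libraries were below all 3 H − N libraries, a separation that 5.13% of the tested genes showed in this direction, and the log2 difference of −0.59 ± 0.34 was not called (edgeR, adjusted p = 0.634).

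CSF1R, the receptor, lies on the minus strand of chromosome 2 (151102138 to 151130311). It stood at 160, 326 and 381 CPM in L − N, at 168, 137 and 120 under L + N, at 100.0, 111 and 64.0 under H − N, and at 119, 130 and 90.9 under H + N. Every H − N and every H + N library was below every L − N library, whereas L + N replicate 1 exceeded L − N replicate 1. The group means were 289 ± 115 CPM (SD, n = 3) for L − N, 142 ± 24.1 for L + N, 91.6 ± 24.5 for H − N and 113 ± 20.3 for H + N. Against L − N, CSF1R was 3.15-fold lower in H − N (log2 difference −1.66 ± 0.31, edgeR adjusted p = 0.0225) and 2.55-fold lower in H + N (−1.35 ± 0.30, adjusted p = 0.0284). In L + N the difference was −1.03 ± 0.30 and missed the threshold (edgeR adjusted p = 0.0544).

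CD163, the receptor through which macrophages take up haptoglobin-hemoglobin complexes, lies on the plus strand of chromosome 5 (63300200 to 63334497). Its CPM was 186, 690 and 692 in L − N, 169, 230 and 127 under L + N, 142, 139 and 106 under H − N, and 146, 197 and 138 under H + N. L − N replicates 2 and 3 were far above the rest, and L − N replicate 1 lay within the range of L + N and of H + N. CD163 was lower than in L − N in all 3 other diets, 4.06-fold in H − N (log2 difference −2.02 ± 0.42, edgeR adjusted p = 0.0279), 2.98-fold in L + N (−1.57 ± 0.41, adjusted p = 0.0364) and 3.26-fold in H + N (−1.71 ± 0.41, adjusted p = 0.0332). In each comparison this was the largest log2 difference among the called members, and the L − N mean behind them (523 ± 292 CPM, SD, n = 3) had an SD larger than the mean of any other group.

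CD14, the lipopolysaccharide co-receptor, lies on the minus strand of chromosome 2 (142348036 to 142349686). Its CPM was 22.7, 40.8 and 49.0 in L − N, 15.3, 14.1 and 12.6 under L + N, 10.0002, 15.2 and 13.04 under H − N, and 13.4, 17.2 and 14.7 under H + N. CD14 and no other member had all 3 L − N libraries above all 9 libraries of the other diets, as 5.28% of the tested genes did. It was 2.95-fold lower in H − N (log2 difference −1.56 ± 0.26, edgeR adjusted p = 0.0192), 2.68-fold lower in L + N (−1.42 ± 0.26, adjusted p = 0.0115) and 2.48-fold lower in H + N (−1.31 ± 0.26, adjusted p = 0.0218). The 3 diets other than L − N were close to each other, with means of 14.0 ± 1.37, 12.7 ± 2.61 and 15.1 ± 1.92 CPM (SD, n = 3) in L + N, H − N and H + N.

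MRC1, the mannose receptor, lies on the plus strand of chromosome 10 (44107926 to 44226734). It measured 114, 152 and 152 CPM in L − N, 45.6, 120 and 43.1 under L + N, 46.8, 78.5 and 48.0 under H − N, and 62.1, 80.2 and 62.3 under H + N. The L − N libraries were above all of H − N and H + N, and a single L + N library, replicate 2, reached their range. The log2 differences from L − N were −1.27 ± 0.36 in H − N, −1.004 ± 0.36 in L + N and −1.03 ± 0.36 in H + N, none of them called (edgeR adjusted p = 0.0649, 0.0996 and 0.0924). Without L + N replicate 2, MRC1 was called in all 3 comparisons with L − N.

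Both class A scavenger receptors, which bind modified lipoproteins and microbial surfaces, were spread widely in L − N. MSR1 (chromosome 17, minus strand, 3859903 to 3939612) stood at 27.7, 86.7 and 97.1 CPM in L − N, 40.2, 32.6 and 29.8 under L + N, 31.8, 34.5 and 19.9 under H − N, and 41.0, 32.6 and 15.8 under H + N. L − N replicate 1 was lower than all 3 L + N libraries, and no group was separated from another. MARCO (chromosome 15, plus strand, 24502935 to 24541286, overlapped in RefSeq by the pseudogene LOC100516467) had 2.36, 14.4 and 4.30 CPM in L − N, 3.40, 2.74 and 2.16 under L + N, 2.59, 3.19 and 0.552 under H − N, and 6.92, 1.25 and 4.11 under H + N. The log2 differences from L − N in H − N, L + N and H + N were −1.29 ± 0.44, −1.04 ± 0.44 and −1.24 ± 0.44 for MSR1 and −1.73 ± 0.78, −1.34 ± 0.77 and −0.78 ± 0.76 for MARCO, and neither gene was called. For MARCO the 14.4 CPM of L − N replicate 2 carried the difference: without that library it was −0.65 in H − N, −0.26 in L + N and 0.29 in H + N.

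AIF1, also known as IBA1, encodes an actin-binding protein of macrophages and microglia. It lies on the plus strand of chromosome 7 (23711752 to 23731191), where the table also places LST1 on the same strand and NCR3 on the other, so its reads are uncertain. AIF1 had 43.7, 78.4 and 76.6 CPM in L − N, 56.0, 43.3 and 30.2 under L + N, 31.0, 35.6 and 27.2 under H − N, and 42.6, 43.8 and 26.4 under H + N. TYROBP, the adaptor also called DAP12, lies on the minus strand of chromosome 6 (45309199 to 45312562) and had 28.8, 66.3 and 60.0 CPM in L − N, 41.7, 25.4 and 22.8 under L + N, 26.1, 26.6 and 20.1 under H − N, and 26.3, 29.9 and 23.9 under H + N. For both genes all H − N libraries were below all L − N libraries, while L + N and H + N overlapped with L − N. The log2 differences between H − N and L − N were −1.08 ± 0.28 for AIF1 (edgeR adjusted p = 0.0503) and −1.09 ± 0.30 for TYROBP (adjusted p = 0.0613), just outside the threshold. Those of L + N were −0.62 ± 0.28 and −0.78 ± 0.30, and those of H + N −0.82 ± 0.28 and −0.95 ± 0.30, in the same order.

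Over all 4 groups, 3 of the 9 genes differed, CSF1R, CD163 and CD14 (edgeR adjusted p = 0.0270, 0.0301 and 0.0189), where 6.96% of the tested genes did. A call between 2 groups required an adjusted p under 0.05 and an absolute log2 fold change above 1. H − N against L − N called the same 3 genes, all lower, where 2.91% of the tested genes were called and 2.01% were called lower. L + N against L − N called CD163 and CD14, both lower, where 3.99% of the tested genes were called and 0.671% were called lower. H + N against L − N called CSF1R, CD163 and CD14, all lower, where 3.58% were called and 1.28% were called lower. The 3 comparisons share the 3 L − N libraries and are not independent of one another. The members' median log2 difference was −1.29, −1.03 and −1.03 in H − N, L + N and H + N, against 0.03, −0.02 and 0.02 over all tested genes. All libraries of a diet were below all L − N libraries for 6 members in H − N (CSF1R, CD163, MRC1, AIF1, TYROBP and CD14; 12.7% of the tested genes), for 1 in L + N (CD14; 17.2%) and for 3 in H + N (CSF1R, MRC1 and CD14; 12.7%).

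**Figure D2:**
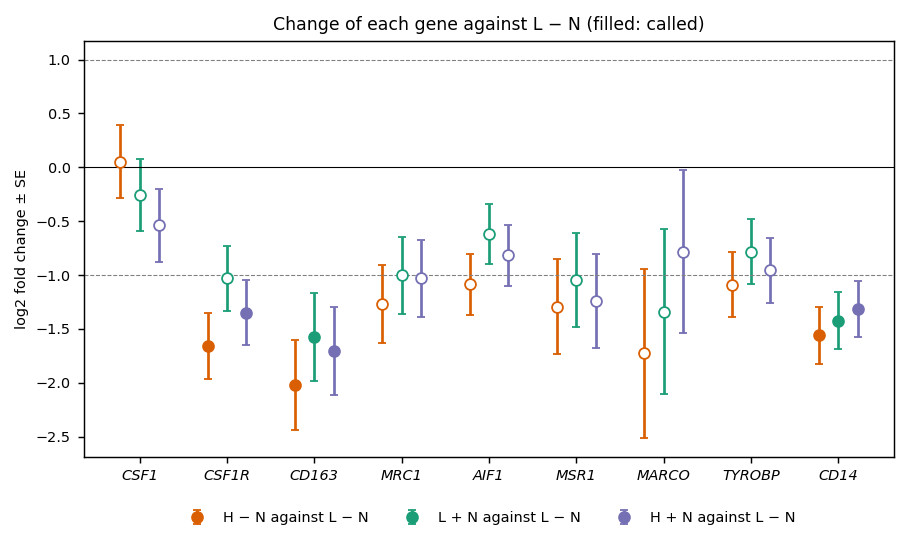
Log2 fold change against L − N with its SE for the 9 genes in H − N, L + N and H + N; filled points were called, and dashed lines mark a log2 fold change of 1 in either direction. CD163 and CD14 are filled in all 3 comparisons, and CSF1R in H − N and H + N. CSF1 is open in all 3, with a bar that spans 0 in H − N and L + N but not in H + N (−0.54 ± 0.34).

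These calls depended on single libraries. Without L − N replicate 1, the library with the high smooth muscle and low leukocyte marker levels, 7 members were called in H − N (all but CSF1 and MARCO), 5 in L + N (CSF1R, CD163, MSR1, TYROBP and CD14) and 6 in H + N (CSF1R, CD163, AIF1, MSR1, TYROBP and CD14). The share of all tested genes called rose as well, to 7.19% in H − N, 5.85% in L + N and 6.09% in H + N. Leaving out L − N replicate 3 instead left 0 members called in each of the 3 comparisons, where 0.0385%, 0.918% and 0.0257% of all tested genes were still called, so the loss ran through the whole table. Leaving out L − N replicate 2 left CD14 alone in each, beside 0.787%, 3.50% and 2.21% of all genes. In H − N no member, and 0% of all genes, was called without H − N replicate 1, and CD14 alone without H − N replicate 3 (1.02% of all genes). In H + N none was called without H + N replicate 1 (0.00642% of all genes) or without H + N replicate 3 (1.2%). In L + N the call narrowed to 1 gene without any 1 of its own replicates, MRC1 without replicate 2 and CD14 without replicate 1 or 3, and to CD14 without H − N replicate 2 or H + N replicate 1. The shares of all genes in the fits without L + N replicates 1, 2 and 3 were 2.68%, 1.18% and 2.47%. Without H − N replicate 2 and without H + N replicate 1 they were 3.51% and 3.54%. With every library left out in turn, the log2 difference of CSF1R ranged from −1.95 to −1.40 in H − N, that of CD163 from −2.42 to −1.77 and that of CD14 from −1.82 to −1.32. The sign did not turn for these genes. All their H − N libraries were below all L − N libraries, so leaving out 1 library could hardly turn it. Fewer macrophages in a tissue and less of these RNAs in each macrophage cannot be told apart in bulk RNA.

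**Figure D3:**
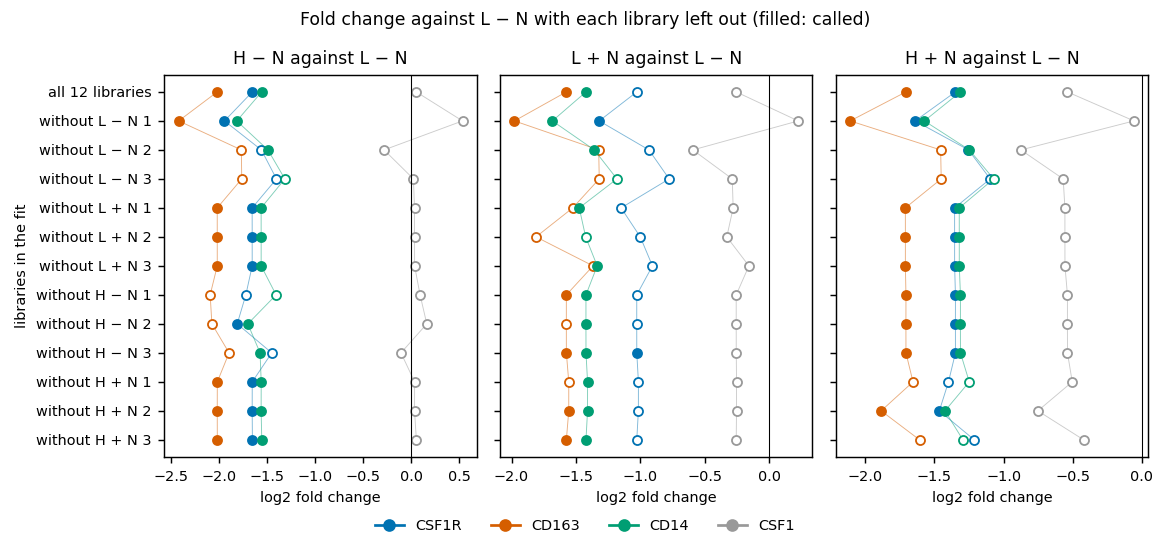
Log2 fold change against L − N of CSF1R, CD163, CD14 and CSF1 (horizontal axis) with all 12 libraries and with each library left out (vertical axis), 1 panel per diet; filled points were called. The points of CSF1R, CD163 and CD14 stay below 0 in every row and are open in all panels without L − N 3, while CSF1 moves across 0 in H − N and L + N.

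The main effects gave no call for these genes. For high against low fiber, all 9 log2 differences were negative, from −1.08 ± 0.29 (CD163) and −0.99 ± 0.21 (CSF1R) to −0.11 ± 0.24 (CSF1), 7 had an unadjusted p under 0.05, and none was called by edgeR, where 0.0261% of the tested genes were. DESeq2 called 1 of them, CD163, and 1.89% of all genes. Without L − N replicate 1, edgeR called CSF1R and CD163, and 2.13% of all genes. For NCG against no NCG, all 9 differences were again negative, the largest for CD163 (−0.63 ± 0.28) and CD14 (−0.59 ± 0.18, edgeR adjusted p = 0.0787). Of these 9, 2 had an unadjusted p under 0.05. None was called by edgeR, where 1.8% of the tested genes were, or by DESeq2, where 2.31% were. Under low fiber (L + N against L − N) the differences were negative for all 9 genes. Under high fiber (H + N against H − N) they were positive for 8 of the 9, with a median of 0.25 and 0 called.

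The interaction compares what NCG did under high fiber with what it did under low fiber. It was positive for 8 of the 9 genes and negative for CSF1, with a log2 value of 1.67 ± 0.37 for CD14, 1.89 ± 0.57 for CD163 and 1.34 ± 0.43 for CSF1R. By edgeR 5 members had an unadjusted p under 0.05 and 0 were called, as 0% of all tested genes were (CD14 adjusted p = 0.253), while DESeq2 called CD163 and CD14, and 1.2% of all genes. Without L − N replicate 1, edgeR called CSF1R, CD163 and CD14, and 2.22% of all genes. All of these interactions have the L − N libraries as 1 of their 4 terms.

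Among the diets other than L − N, H + N was tested against H − N and against L + N, while H − N against L + N, which differ in both fiber and NCG, was not tested. H + N against H − N called 0 members, and 0% of the tested genes, with log2 differences from −0.59 ± 0.34 (CSF1) to 0.94 ± 0.78 (MARCO). H + N against L + N likewise called 0 members and 0% of the tested genes, with differences from −0.32 ± 0.30 (CSF1R) to 0.56 ± 0.77 (MARCO). No member had an unadjusted p under 0.05 in either, and DESeq2 called no member in either. Of all genes, DESeq2 called 0.163% for H + N against H − N and 0.013% for H + N against L + N. The SEs of these differences were 0.26 to 0.78 on the log2 scale, and a difference of that order was not detectable with 3 libraries a group.

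Genes related by function were described by lists, beside which stand the background shares of genes called lower, given above. Which cells the RNA of these genes came from was not tested. Among myeloid growth factors and their receptors, 0 of 6 tested genes were called in any of the 3 comparisons with L − N. IL34, the other ligand of CSF1R, had group means of 11.7 ± 4.14 CPM (SD, n = 3) for L − N, 15.1 ± 2.31 for L + N, 11.6 ± 0.264 for H − N and 12.6 ± 4.86 for H + N, and log2 differences of −0.01 ± 0.31, 0.37 ± 0.31 and 0.11 ± 0.31 in H − N, L + N and H + N. Thus neither ligand of CSF1R was called in a comparison in which the receptor was. CSF2RA, a receptor subunit for the growth factor GM-CSF and the gene of this list with the highest mean FPKM, had −1.25 ± 0.59, −1.12 ± 0.58 and −1.25 ± 0.59 in the same order.

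Of 10 transcription factors of the myeloid lineage, 2 were called lower in H − N, 0 in L + N and 1 in H + N. IRF5 (log2 difference −1.24 ± 0.27, edgeR adjusted p = 0.0318) and IRF8 (−1.41 ± 0.35, adjusted p = 0.0445), both interferon regulatory factors, fell in H − N, and SPI1, the factor PU.1 that myeloid cells require, fell in H + N (−1.26 ± 0.32, adjusted p = 0.0403). CEBPB, the factor of the list with the highest mean FPKM, had −0.27 ± 0.40, −0.82 ± 0.41 and −0.51 ± 0.40 in H − N, L + N and H + N and was not called. The list's median was −0.99, −0.76 and −0.74 in the same order.

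Among 13 tested receptors and kinases that signal with or like TYROBP through ITAM motifs, 1 was called lower in H − N (the kinase BTK, −1.40 ± 0.32), 0 in L + N and 0 in H + N. TREM2, a receptor that signals through TYROBP, had log2 differences of −1.95 ± 0.63 in H − N (edgeR adjusted p = 0.0908), −0.74 ± 0.60 in L + N and −1.03 ± 0.61 in H + N. FCER1G, a further ITAM adaptor and the list's most abundant gene, had −1.11 ± 0.32, −0.53 ± 0.31 and −0.73 ± 0.31 in the same order. The phospholipase PLCG2 differed over the 4 groups without passing a log2 difference of 1 in any pair (−0.66 ± 0.12 in H − N).

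Of the 11 genes of lipopolysaccharide recognition around CD14, 3 were called lower in H − N, 2 in L + N and 2 in H + N. LY96, known as MD-2, which holds lipopolysaccharide on TLR4 and was the most abundant of the list, fell in all 3 diets (−1.13 ± 0.21, −1.07 ± 0.21 and −1.02 ± 0.21 in H − N, L + N and H + N). TLR2, a receptor for bacterial lipoproteins that also uses CD14, fell in all 3 as well (−1.66 ± 0.32, −1.10 ± 0.31 and −1.32 ± 0.31), and LY86 fell in H − N (−1.62 ± 0.39). The median of the list was −0.44, −0.41 and −0.92, so most of its genes moved less than these.

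Of 16 other tested scavenger and endocytic receptors, 4 were called lower in H − N, 0 in L + N and 2 in H + N. STAB1, a scavenger receptor of macrophages and sinus endothelium, fell in H − N (−1.43 ± 0.21) and H + N (−1.11 ± 0.21), and its log2 difference in L + N, −0.92 ± 0.21, did not reach the fold threshold. CD209 (−2.70 ± 0.59), a lectin of macrophages and dendritic cells, CD68 (−1.62 ± 0.42), a lysosomal protein, and COLEC12 (−1.31 ± 0.34), a collectin, fell in H − N, and CXCL16, a chemokine that also acts as a scavenger receptor, fell in H + N (−1.22 ± 0.31). SCARB2, a lysosomal membrane protein and the most abundant of the list, had −0.72 ± 0.26 in H − N, −0.75 ± 0.26 in L + N and −0.55 ± 0.26 in H + N, and SCARA3 differed over the 4 groups with no pair past the fold threshold (−0.97 ± 0.20 in H + N).

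The list of 20 other tested macrophage genes had the most calls, 12 lower in H − N, 1 in L + N and 3 in H + N, with medians of −1.32, −0.79 and −0.88. All 3 chains of complement C1q, which tissue macrophages make, fell in H − N: C1QA by 1.75 ± 0.33, C1QB by 1.504 ± 0.30 and C1QC by 1.59 ± 0.30 on the log2 scale. The complement receptors VSIG4 (−2.26 ± 0.46) and ITGAM (−2.27 ± 0.53), the integrin ITGB2 (−1.19 ± 0.28), the efferocytosis receptors MERTK (−1.24 ± 0.28) and TIMD4 (−1.24 ± 0.30), and the surface proteins ADGRE1 (−2.11 ± 0.48) and SIGLEC1 (−2.02 ± 0.52) fell with them in H − N. So did the lysosomal protein LAPTM5 (−1.14 ± 0.26) and the antibacterial enzyme LYZ (−4.30 ± 0.997). C1QC (−1.06 ± 0.29) and TIMD4 (−1.33 ± 0.30) were also called in H + N. GPNMB, the most abundant of the list, was not called (−1.18 ± 0.50 in H − N).

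F13A1, the A chain of coagulation factor XIII, had another pattern from these genes. Its means were 150 CPM in L − N and 132 in H − N against 53.5 in L + N and 52.5 in H + N. It was called lower in L + N (−1.49 ± 0.41, edgeR adjusted p = 0.0436), in H + N (−1.52 ± 0.41, adjusted p = 0.0459) and for NCG against no NCG (−1.41, adjusted p = 0.0166), and its log2 difference between H − N and L − N was −0.18 ± 0.40. None of the 9 members was called for NCG.

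Among genes of hemoglobin and heme handling, the ligand side and the downstream side of CD163 uptake, 2 of 10 were called lower in H − N, 0 in L + N and 1 in H + N. HMOX1, the enzyme that opens heme, fell in H − N (−1.97 ± 0.35) and H + N (−1.73 ± 0.35), with −0.997 ± 0.34 and no call in L + N. FTL, the ferritin light chain that stores iron and the most abundant of the list, fell in H − N (−1.34 ± 0.35). In none of these 7 lists was a gene called higher in a comparison with L − N.

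The calls of these lists were counted again without L − N replicate 1 and without H − N replicate 3, a choice made after the data were seen. Without L − N replicate 1, the counts called lower in H − N, L + N and H + N were 3, 2 and 2 for the growth factors and receptors, 6, 5 and 5 for the transcription factors, and 6, 0 and 5 for the ITAM genes. They were 4, 3 and 5 for lipopolysaccharide recognition, 7, 4 and 4 for the scavenger receptors, 14, 8 and 12 for the other macrophage genes, and 4, 2 and 3 for heme handling, beside 4.36%, 2.15% and 3.17% of all tested genes. Every gene of the 7 lists called lower with all 12 libraries was still called in the same comparison. Without H − N replicate 3 the calls in H − N were lost for all but 1 gene of these lists, STAB1. Of all genes, 0.552% were still called lower, and the 12 calls among the other macrophage genes fell to 0. The lists were not counted without other libraries. Calls over all genes fell to 0% in H − N without H − N replicate 1, so no list call there held. Without L − N replicate 3 they were 0.0385% in H − N and 0.0257% in H + N. Without H + N replicate 1 they were 0.00642% in H + N.

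**Figure D4:**
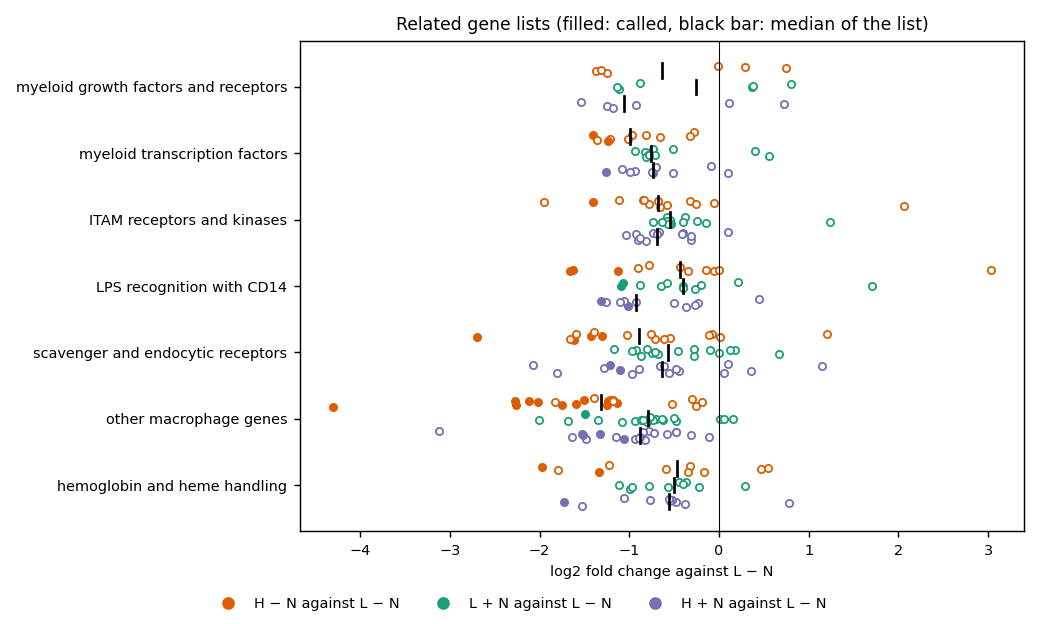
Log2 fold change against L − N of each tested gene of the 7 related lists in H − N, L + N and H + N; filled points were called and black bars mark the median of each list. All filled points lie below 0, with 12 for the other macrophage genes in H − N and 0 for the growth factors and receptors.

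Markers of other cells were read the same way. General leukocyte markers summed to 311 to 777 CPM under L − N, 406 to 553 under L + N, 336 to 363 under H − N and 411 to 463 under H + N, and 0 of 4 were called in any comparison with L − N. Without L − N replicate 1, 3 of these 4 (CD53, LCP1 and PTPRC) were called lower in H − N and 1 (CD53) in H + N. Neutrophils can express CD14, TYROBP and AIF1. Their 6 markers, of which MPO had at most 3 reads in any library, summed to 8.2 to 49.6 CPM under L − N, 9.7 to 101 under L + N, 4.9 to 172 under H − N and 4.7 to 16.7 under H + N, with 0 of 5 tested called. H − N replicate 3, the library at 172, had the lowest CSF1R, CD163, AIF1, MSR1, MARCO and TYROBP of its group. Its CD14, MRC1 and CSF1 were not the lowest. T and NK cell (0 of 8), B and plasma cell (0 of 6), mast cell (0 of 3, CPA3 at 0 reads in all libraries), dendritic cell (0 of 4), stroma (0 of 6) and epithelium (0 of 5) markers were not called in these comparisons. The smooth muscle markers, 1005 to 3649 summed CPM under L − N against 718 to 894 under L + N, 554 to 1113 under H − N and 973 to 1072 under H + N, had ACTA2 called lower in L + N, a call lost without L − N replicate 1. The endothelium markers, 1066 to 1559 summed CPM in L − N and 753 to 1175 elsewhere, had PECAM1 called lower in L + N, lost without the same library. Markers of dividing cells were called higher, 1 of 4 in H − N (TOP2A) and 4 of 4 in L + N and H + N. Of all 15351 tested genes, 137, 510 and 352 were called higher in H − N, L + N and H + N. Without L − N replicate 1, the dividing cell markers were called higher in 1, 3 and 2 of 4. Without that library NKG7 of the T and NK cell list was also called lower in H − N and H + N, FLT3 of the dendritic cell list lower in H − N and L + N, and HDC of the mast cell list higher in H − N and H + N. Without H − N replicate 3, TOP2A lost its call in H − N, while S100A12 of the neutrophil list was called lower in H + N. In that fit HDC was called higher in H + N, and CNN1 of the smooth muscle list lower in L + N. The part of these other cells in the results for the 9 genes was not tested.

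Across the 12 libraries, most members followed CSF1R. Pearson's r of log2 CPM with CSF1R was 0.94 for CD163, AIF1 and TYROBP, 0.91 for MSR1, 0.90 for CD14, 0.75 for MRC1, 0.64 for MARCO and −0.22 for CSF1, and Spearman's rho was 0.86, 0.92, 0.81, 0.69, 0.76, 0.55, 0.41 and −0.06 in that order. Without L − N replicates 2 and 3, the libraries with the highest CSF1R, r over the remaining 10 was 0.77 for CD163, 0.86 for AIF1, 0.78 for TYROBP, 0.66 for MSR1, 0.52 for CD14, 0.41 for MRC1, 0.45 for MARCO and 0.06 for CSF1. The points share libraries and diets, so these values describe likeness and were not tested.

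**Figure D5:**
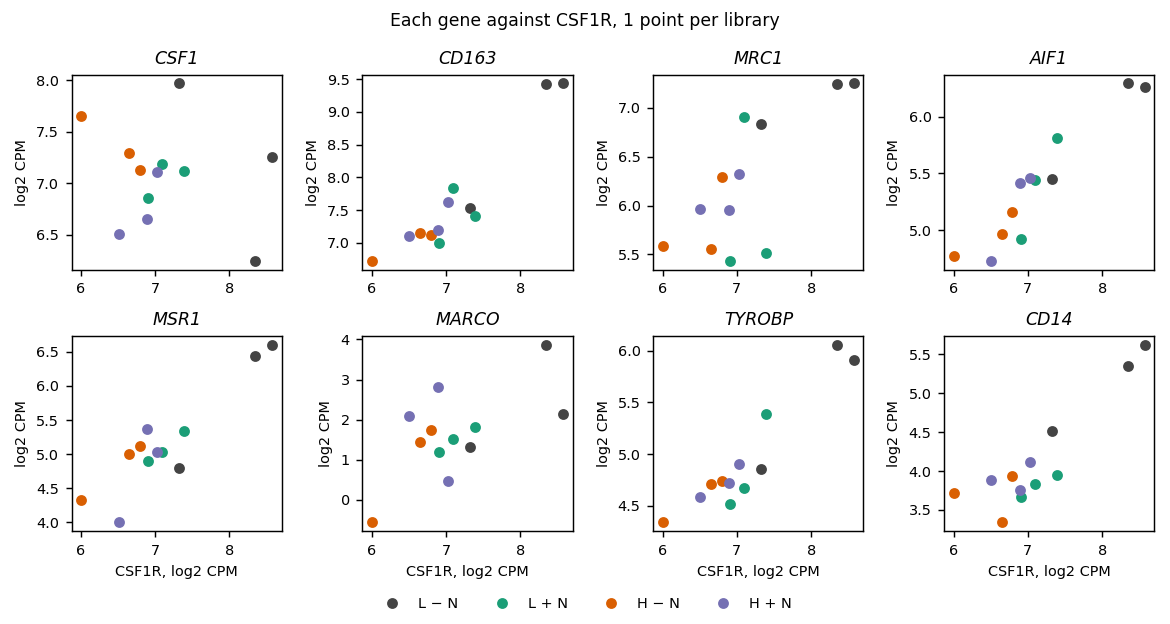
Log2 CPM of each of the other 8 genes (vertical axis) against log2 CPM of CSF1R (horizontal axis), 1 point per library, coloured by diet. Points rise with CSF1R for CD163, AIF1, MSR1, TYROBP and CD14, with L − N replicates 2 and 3 at the right end, and do not rise for CSF1 (r = −0.22).

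The 5 named genes with the pattern most like that of CSF1R, by Pearson's r over the 12 libraries, were ABHD6 (0.99), VSIG4 (0.98), GIMAP6 (0.98), C1QC (0.97) and LRRC25 (0.97), with r of 0.90 to 0.95 when L − N replicates 2 and 3 were left out. Among 15350 genes ranked by this measure, AIF1 was at place 58, CD163 at 73, TYROBP at 76, MSR1 at 209, CD14 at 274, MRC1 at 1069, MARCO at 1774 and CSF1 at 9550.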

How the data were processed

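The deposited table gives a read count, an FPKM value and the gene length in bp for each gene and library on Sscrofa11.1. The column headers name them read counts without the word raw, and they were used here as raw counts. The deposited FPKM values follow from the count, the length and the library total, and served here for comparing levels between genes. The submitters' processing notes name fastp 0.22.0, HISAT2 2.1.0 and HTSeq 0.9.1, with no role or settings. The libraries were strand-specific, and the counting strand is not given in the sources used here, so overlapping genes are uncertain. The table has 0 columns of samples outside the 12 libraries.

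Groups were read from the sample titles. In R 4.3.3, edgeR 4.0.16 (with limma 3.58.1) was run on the counts after filterByExpr on the 4 groups and TMM scaling, with one mean per group and a quasi-likelihood F test. p-values were adjusted over the 15351 genes tested (Benjamini-Hochberg). CPM was scaled with TMM factors, and its log2 took a prior count of 2. The SE is the log2 fold change divided by the square root of F. Calls need an adjusted p under 0.05 and, between groups, an absolute log2 fold change above 1, the thresholds of the paper. The alternatives were RLE size factors, no filter, DESeq2 1.42.0, a replicate block, each library left out, and a fit of the 2 groups alone. Counts of the lists without L − N replicate 1 and without H − N replicate 3 were added after the data were seen.

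The scripts were tested on simulated data. The members and all gene lists were chosen with earlier results of these data known. The genes named are the 9 members, the genes of each related list called in any comparison and its most abundant gene by FPKM, IL34, TREM2, and the 5 most like CSF1R. Some genes of these lists are not reported here.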

Additional observations from a re-analysis of the deposited data

How the results depend on the processing

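The direction of the 8 called differences from L − N, those of CSF1R, CD163 and CD14, held in 17 alternative settings each. For most of them every library of the diet was already below every L − N library. These were CSF1R in H − N and H + N, CD163 in H − N, and CD14 in H − N, L + N and H + N. Leaving out 1 library could hardly reverse such a difference, so its unchanged sign says little. Of these 136 values, which share fits and L − N libraries, 98 were still called, 38 were no longer called and 0 were reversed. The number of members called was less stable. DESeq2 called 7 over the 4 groups, 7 in H − N, 4 in L + N and 5 in H + N against L − N, 1 for fiber and 2 for the interaction, and it called more of all genes too, 21.9%, 5.95%, 5.75% and 6.44% in the first 4 of these. A fit of the 2 groups alone called 0 in H − N, 1 in L + N and 0 in H + N (0.0203%, 3.58% and 0.585% of all genes). Leaving out 1 library gave 0 to 6 over the 4 groups, 0 to 7 in H − N and 0 to 5 in L + N. It gave 0 to 6 in H + N, 0 to 2 for fiber and 0 to 3 for the interaction. The share of all genes called moved too, from 0% to 7.19% in H − N and 0.918% to 5.85% in L + N. It was 0.00642% to 6.09% in H + N, 0% to 2.13% for fiber and 0% to 2.22% for the interaction. Over the 4 groups the lowest share was 0.0257%, without L − N replicate 3. In all 6, members and share were both highest without L − N replicate 1. For NCG, H + N against H − N and H + N against L + N, 0 members were called in every fit. The share of all genes called over these fits was 1.01% to 2.31% for NCG. It was 0% to 0.163% for H + N against H − N and 0% to 0.013% for H + N against L + N. RLE size factors and no filter on low counts kept each count within 1.5 times. Replicate numbers are shared by name only: same-numbered libraries had correlations of their deviations from −0.32 to 0.28 over 18 pairs, with 3 above 0.1. With a replicate block, 2 members were called over the 4 groups, 4 in H − N, 3 in L + N and 4 in H + N. That fit called 3.11%, 1.65%, 3.49% and 2.59% of all genes in the same order. Over the 4 groups these were MRC1 and CD14, so that CSF1R and CD163 lost their call and MRC1 gained one. Counting error was not estimated. Relative to the count it is largest for MARCO, with 8 to 230 reads per library against 189 or more for the other members.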

Other observations

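CSF1 and MARCO, neither of which was called, ran in opposite directions over the 12 libraries (Pearson's r = −0.70 and Spearman's rho = −0.55 of log2 CPM, and r = −0.81 for the deviations from the group means). This pair was picked after its values were seen, MARCO had as few as 8 reads in a library, and the relation was not tested.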
